A study of Homo sapiens with 10 samples.

Results

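The caveolin genes CAV1, CAV2 and CAV3 and the cavin gene CAVIN1 were followed in mantle cell lymphoma cells that had become resistant to bortezomib. These 4 genes, of 19775 genes with a probe set of their own, were read on the 9 probe sets annotated to 1 of these symbols alone. CAV1 had 2 probe sets, CAV2 had 3, CAV3 had 1 and CAVIN1 had 3. The main probe set of each gene was chosen by its score, as the one with the highest mean over the 10 arrays. The rise of CAV1 in both resistant lines was already known when the family was put together. The changes of CAV1 in resistant cells are therefore given as values with no test.

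The study compared the cell lines HBL2 and JEKO, which are B cell lines of mantle cell lymphoma, each as PT cells and as BR cells. BR marks cells made resistant by bortezomib, a proteasome inhibitor, and PT, which the labels do not spell out, is read here as the parental cells of each pair on what is known of the study. There were 3 arrays of HBL2 PT, 3 of HBL2 BR, 2 of JEKO PT and 2 of JEKO BR, from cells in logarithmic growth. The labels name no dose or length of drug exposure and do not say whether replicates were separate cultures, so p-values reflect only how these samples spread, possibly for technical reasons. With 1 cell line behind each pair, a difference between HBL2 and JEKO holds for these 2 lines alone. RNA came from bulk cultures, in which more cells with a transcript and more of it per cell cannot be told apart.

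Caveolins are small membrane proteins that insert into the inner leaflet of the plasma membrane as a hairpin and form flask-shaped pits called caveolae. CAV1 is the main caveolin outside muscle, CAV2 assembles with it, and CAV3 is the muscle form. Cavins are cytoplasmic proteins that coat the pits, and CAVIN1 is required to form them, so that caveolin without CAVIN1 stays in the membrane outside caveolae. Caveolae are abundant in endothelial cells, adipocytes, fibroblasts and muscle, and scarce in resting lymphocytes.

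CAV2 and CAV1 are neighbours on chromosome 7 in the same orientation, with 25.3 kb between the first start sites that RefSeq lists for them (GRCh38.p14). The 250 bases before each of these start sites are shown because the values of these neighbours in resistant cells differ, as given further on. The windows lie at chr7:116524759-116525008 for CAV1 and chr7:116499488-116499737 for CAV2, both on the + strand, upstream of the transcripts. Capitals mark each match to the GC box GGGCGG on either strand.
CAV1: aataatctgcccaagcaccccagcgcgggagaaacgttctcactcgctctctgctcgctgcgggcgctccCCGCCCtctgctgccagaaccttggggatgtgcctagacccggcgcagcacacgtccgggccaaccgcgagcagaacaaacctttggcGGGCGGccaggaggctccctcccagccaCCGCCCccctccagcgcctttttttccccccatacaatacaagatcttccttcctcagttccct
CAV2: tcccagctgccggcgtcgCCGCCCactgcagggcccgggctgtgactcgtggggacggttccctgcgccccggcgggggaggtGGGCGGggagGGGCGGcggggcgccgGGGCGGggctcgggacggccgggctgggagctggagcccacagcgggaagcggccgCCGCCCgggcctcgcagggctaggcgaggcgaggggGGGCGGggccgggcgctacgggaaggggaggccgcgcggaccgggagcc
The CAV1 window held 3 matches to the GC box and the CAV2 window 6, and 42.6% of 35116 such windows in the RefSeq table held at least 1. Neither window held the TATA box TATAAA on either strand, which 10.7% of windows did. The CAV1 window had 18 CG dinucleotides and a GC content of 63.6%, and the CAV2 window had 35 and 83.2%. The median over all windows was 11 CG dinucleotides. For CAV1, windows before later start sites held 16 and 29 CG dinucleotides, with 3 and 2 GC box matches. For CAV2, the window before its later start site held 27, with 3 matches. The contrast between the genes thus depends on the start site chosen. The upstream window of CAV3, on chromosome 3, had 5 CG dinucleotides and 0 GC box matches. CAVIN1 was not matched in the promoter table. Such matches describe the letters and show no binding.

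CAV1 stood higher in the resistant cells of both lines, on both of its probe sets. Values are deposited scores, which run from 0 to 4.99 on every array, with median 0.73 and upper quartile 1.18; they follow rank within the array and look logarithmic, but the base is not stated, so changes are differences in these units and not folds. On the main CAV1 probe set (212097_at) the HBL2 PT arrays read 1.06, 1.04 and 1.12 and the HBL2 BR arrays 1.84, 1.97 and 1.99. Every BR array lay well above every PT array, and the change was 0.86 ± 0.063 (SE of the fit over all arrays; 95% interval 0.73 to 0.99). In terms of position on the array, the gene moved from percentiles 69.7 to 72.9 of all probe sets in PT to percentiles 92.3 to 94.4 in BR.

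In JEKO the same probe set read 0.66 and 0.78 on the PT arrays and 1.43 and 1.48 on the BR arrays. The groups were again apart, with a change of 0.74 ± 0.077 (95% interval 0.57 to 0.90), and the gene moved from percentiles 42.8 and 54.1 to percentiles 82.9 and 84.4. Among the 14529 genes tested, the change of CAV1 ranked 29 from the top in HBL2 and 20 from the top in JEKO. Ordered by the smaller of the changes in the 2 lines, CAV1 ranked 3. These ranks describe the gene that was chosen for its rise and carry no test.

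The other CAV1 probe set (203065_s_at) read 0.87 to 1.11 in HBL2 PT and 1.38 to 1.48 in HBL2 BR, a change of 0.48 ± 0.083. In JEKO it read 0.43 and 0.55 in PT and 0.94 and 1.18 in BR, a change of 0.57 ± 0.10. The groups did not overlap here either, and the change was smaller than on the main probe set in both lines. The 2 probe sets followed each other over the 10 arrays (Pearson r = 0.953, Spearman rho = 0.988), points that share the 4 groups. Of all genes tested, 12.8% had every HBL2 BR array above every PT array and 28.3% had this in JEKO, where only 2 arrays stand on each side.

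The order of the groups on the main CAV1 probe set was HBL2 BR (mean 1.94 ± 0.079, SD, n = 3), JEKO BR (1.45 ± 0.040, n = 2), HBL2 PT (1.07 ± 0.040, n = 3) and JEKO PT (0.72 ± 0.086, n = 2). No 2 neighbours in this order overlapped. On the other probe set JEKO BR (0.94 to 1.18) and HBL2 PT (0.87 to 1.11) did overlap. The rise in HBL2 exceeded that in JEKO by 0.12 ± 0.10 on the main probe set (95% interval -0.088 to 0.33) and fell short of it by 0.092 ± 0.13 on the other (-0.37 to 0.19), so the sign of the difference between the lines turned with the probe set.

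**Figure D1:**
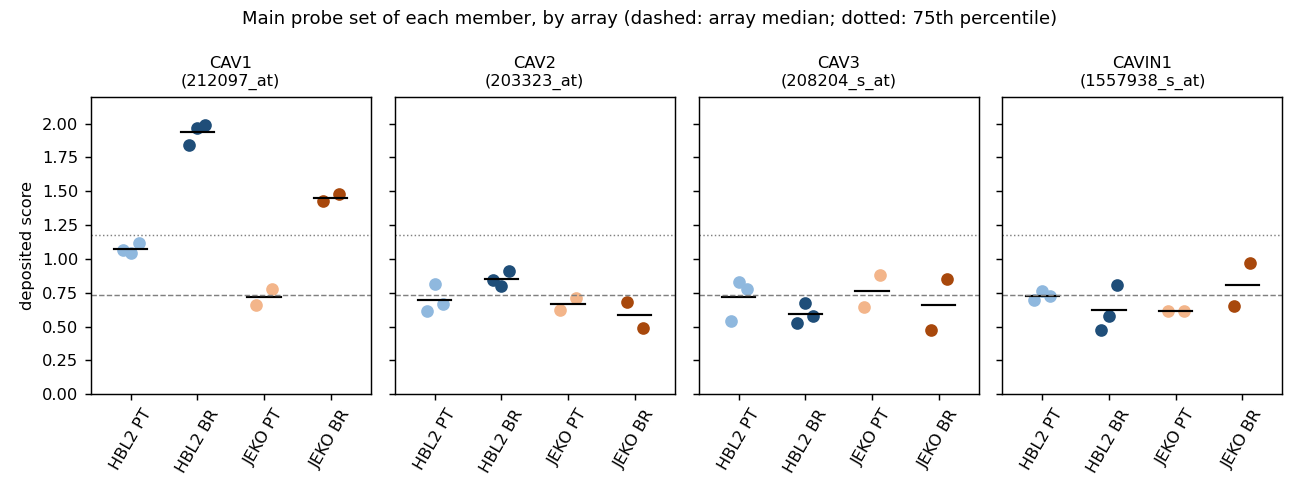
Deposited score (vertical axis) of the main probe set of each gene on every array; each point is 1 array, bars are group means, and the dashed and dotted lines are the array's median (0.73) and upper quartile (1.18). CAV1 is higher in BR than in PT cells of both lines, while CAV2, CAV3 and CAVIN1 lie around the median in all 4 groups.

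The level of CAV1 in PT cells also differed between the lines. In PT cells it was higher in HBL2 than in JEKO by 0.36 ± 0.070 (limma adjusted p = 0.0015), with all 3 HBL2 arrays above both JEKO arrays, an order that 26.3% of all genes showed. On the other probe set the difference was 0.46 ± 0.093 (adjusted p = 0.0017). CAV1 was the 1 of the 4 genes that passed this test on its main probe set, against 23.1% of all genes tested (13.9% higher in HBL2). Leaving out any 1 array gave 0.30 to 0.42 (adjusted p = 0.0019 to 0.036).

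CAV2, the partner that is carried to the cell surface with CAV1, did not show a change that passed the test in either line. On its main probe set (203323_at) the HBL2 PT arrays read 0.61, 0.82 and 0.67 and the BR arrays 0.84, 0.80 and 0.91. PT replicate 2 lay inside the range of the BR arrays, and the difference was 0.15 ± 0.094 (95% interval -0.049 to 0.35, limma adjusted p = 0.37). In JEKO the PT arrays read 0.62 and 0.71 and the BR arrays 0.68 and 0.49, a difference of -0.083 ± 0.12 (-0.33 to 0.16, adjusted p = 0.79). The difference between the lines in this change was 0.23 ± 0.15 (adjusted p = 0.40). That test was passed by 0 of 3 genes (CAV2, CAV3 and CAVIN1; 0 at an unadjusted p under 0.05) and by 8.71% of all genes in limma.

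The 3 CAV2 probe sets disagreed on the level in the lines. On 203324_s_at HBL2 PT read 0.72 to 0.79 and HBL2 BR 0.83 to 0.96, while JEKO PT read 0.34 and 0.032 and JEKO BR 0.36 and 0.29. All 6 HBL2 arrays were thus above all 4 JEKO arrays, an order whose share over all genes was not taken. For the PT arrays alone 26.3% of all genes showed it. The JEKO values were low, at percentiles 0.608 to 13.1 of the array. The PT difference was 0.56 ± 0.12 (limma adjusted p = 0.0032). On the main probe set the same difference was 0.032 ± 0.11 (adjusted p = 0.87), and on 213426_s_at it was 0.24 ± 0.13 (adjusted p = 0.22). With the median over the 3 probe sets it was 0.33 ± 0.080 and passed (adjusted p = 0.011).

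In HBL2 every BR array lay above every PT array on 203324_s_at, an order that 12.8% of all genes tested showed. The difference of 0.15 ± 0.11 did not pass (limma adjusted p = 0.46). The 213426_s_at probe set gave 0.095 ± 0.12 in HBL2 (adjusted p = 0.70) and 0.27 ± 0.15 in JEKO (adjusted p = 0.36), where PT read 0.43 and 0.33 and BR 0.599 and 0.71. In JEKO 203324_s_at gave 0.14 ± 0.13 (adjusted p = 0.67). The differences in HBL2 were positive on all 3 probe sets, and in JEKO the main probe set alone was negative.

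CAV3, the muscle caveolin, was read by 1 probe set (208204_s_at) and scattered around the array median. HBL2 PT read 0.54, 0.83 and 0.78 and HBL2 BR 0.53, 0.68 and 0.58. JEKO PT read 0.64 and 0.88 and JEKO BR 0.47 and 0.85. The groups overlapped in both lines. The differences were -0.12 ± 0.12 in HBL2 (95% interval -0.37 to 0.13, adjusted p = 0.605) and -0.10 ± 0.15 in JEKO (-0.41 to 0.21, adjusted p = 0.79).

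CAVIN1, the coat protein that caveolae need, did not pass in either line. On its main probe set (1557938_s_at) HBL2 PT read 0.69, 0.76 and 0.73 and HBL2 BR 0.47, 0.58 and 0.81, a difference of -0.11 ± 0.11 (95% interval -0.34 to 0.12, adjusted p = 0.62). HBL2 BR replicate 3 was above all PT arrays and the other two BR arrays were below them. JEKO PT read 0.619 and 0.615 and JEKO BR 0.65 and 0.97. These do not overlap, an order that 28.3% of all genes tested showed in JEKO. The difference of 0.19 ± 0.13 (-0.091 to 0.47) did not pass (limma adjusted p = 0.51). Without JEKO BR replicate 2, the array of 0.97, it was 0.033. That array also had the lowest 5' minus 3' difference of the beta-actin control probe sets in its line (-1.01), a sign of RNA quality. With that difference as a covariate of the fit, the CAVIN1 change in JEKO stayed positive and did not pass.

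The other CAVIN1 probe sets were low on all 10 arrays. 208789_at ranged from 0.395 to 0.66 and 208790_s_at from 0.11 to 0.61, below the array median of 0.73 throughout. Their BR minus PT differences lay between -0.10 and 0.094 (adjusted p = 0.78 to 0.925). The 3 probe sets did not follow each other over the arrays, with Pearson r from -0.042 to 0.29.

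Of the 3 genes tested in BR against PT (CAV2, CAV3 and CAVIN1), 0 passed limma in HBL2, where 11.8% of all genes did, and 0 passed in JEKO, where 4.28% did; at an unadjusted p under 0.05 the count was also 0 in each line. On the main probe sets their 95% intervals reached up to 0.35 in HBL2 and 0.47 in JEKO, so smaller rises cannot be told from no rise. The main probe sets of CAV2, CAV3 and CAVIN1 lay at or above the array median on 4, 4 and 3 of 10 arrays, and 7 of the 9 probe sets passed the filter on low values. No detection calls were used here, so whether these 3 genes were expressed cannot be told from the scores. Over the arrays the main probe set of CAV1 had a Pearson r of 0.507 with that of CAV2, -0.394 with CAV3 and -0.008 with CAVIN1, as a description of 10 points in 4 groups.

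**Figure D2:**
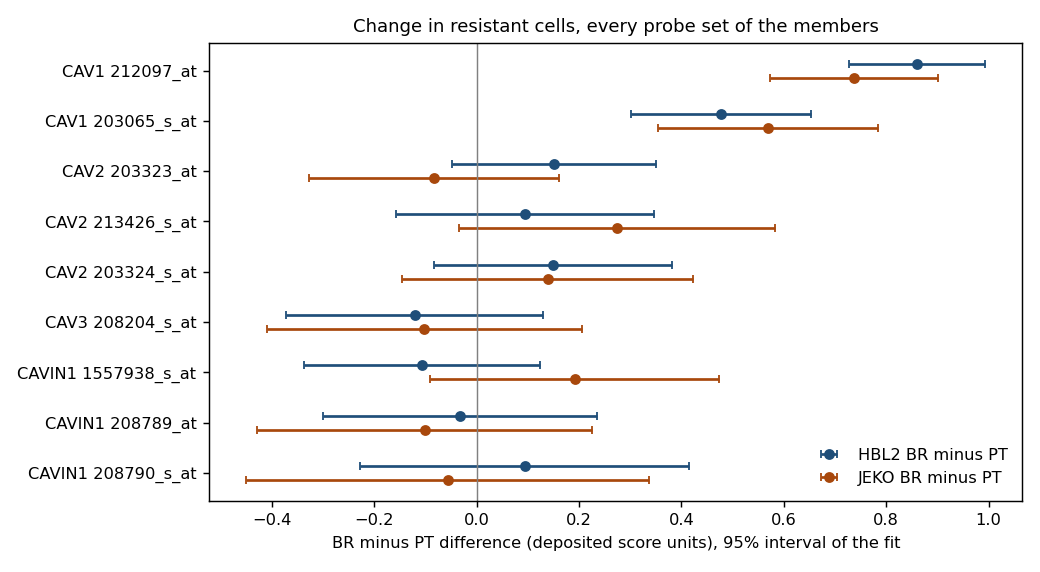
Difference between BR and PT cells in deposited score units (horizontal axis) for each of the 9 probe sets, with the 95% interval of the fit, in HBL2 and JEKO. The CAV1 values, between 0.48 and 0.86, are shown as a description, since CAV1 was chosen with its rise known; the intervals of the other 7 probe sets include 0.

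**Figure D3:**
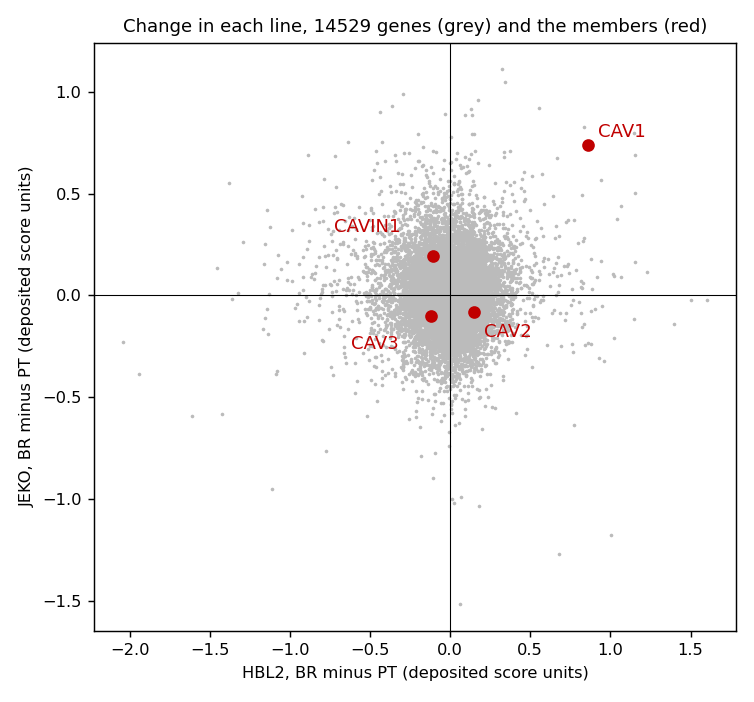
Difference between BR and PT cells in HBL2 (horizontal axis) and JEKO (vertical axis), in deposited score units, for the 14529 genes tested (grey) and the 4 caveolin and cavin genes (red). CAV1 lies at 0.86 and 0.74, while CAV2, CAV3 and CAVIN1 lie within 0.20 units of 0 on both axes.

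Other parts of the caveola were read from a set of lists. Of the other cavins, CAVIN2 and CAVIN3 did not pass the filter on low values, and CAVIN4, the muscle cavin, differed by 0.19 ± 0.13 in HBL2 and -0.16 ± 0.16 in JEKO (adjusted p = 0.44 and 0.68). Of 15 genes of the caveola neck, coat and scaffold, 10 were tested; 3 fell and 0 rose in HBL2, where 6.86% of all genes tested fell and 4.91% rose. In JEKO 0 of the 10 passed limma, where 1.72% of all genes fell and 2.56% rose. At an unadjusted p under 0.05 the limma count was 5, and the share of all genes at that threshold was not taken. The median difference of the list was -0.040 in HBL2 and 0.15 in JEKO, against -0.00099 and 0.012 over all genes tested. EHD2, the ATPase that rings the caveola neck, differed by -0.15 ± 0.10 in HBL2 and 0.11 ± 0.13 in JEKO (adjusted p = 0.44 and 0.74).

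The fall with the smallest adjusted p in this list was that of ROR1, an orphan receptor tyrosine kinase of lymphoma cells that also binds CAVIN1 and CAV1. It went from 1.74 to 1.37 in HBL2, a change of -0.37 ± 0.057 (adjusted p = 3.31e-04), and changed by 0.050 ± 0.070 in JEKO (adjusted p = 0.79). PACSIN1 and PACSIN2, F-BAR proteins that bend membranes, fell in HBL2 by 0.36 ± 0.069 and 0.27 ± 0.069. The median over probe sets ended both calls (adjusted p = 0.23 and 0.86), and PACSIN2 also lost its call without HBL2 PT replicate 2 (0.060), without HBL2 BR replicate 2 (0.11) and once probe sets ending in _x_at or _s_at were left out (0.85).

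Flotillins and adaptors of lipid rafts, cholesterol-rich membrane patches that form without caveolins, made up a list of 9 genes. In HBL2 1 of them rose and 2 fell, where 4.91% of all genes tested rose and 6.86% fell. In JEKO 1 rose and 0 fell, where 2.56% of all genes rose and 1.72% fell. The medians of the list were -0.086 in HBL2 and 0.043 in JEKO. FLOT1 and FLOT2, the flotillins, differed by -0.022 and -0.15 in HBL2 and by 0.12 and 0.018 in JEKO, none of which passed (adjusted p = 0.26 to 0.95). PAG1, a raft adaptor that recruits the kinase CSK, fell by 1.02 ± 0.065 in HBL2 (adjusted p = 3.15e-08) and moved by 0.076 ± 0.080 in JEKO (adjusted p = 0.69). RFTN1, the raft protein raftlin of B cells, rose by 0.49 ± 0.061 in HBL2 (adjusted p = 3.92e-05). LAT2, a raft adaptor of B cell receptor signalling, fell by 0.69 ± 0.060 in HBL2 (adjusted p = 8.27e-07) and rose by 0.32 ± 0.073 in JEKO (adjusted p = 0.021). Its other probe set differed by 0.17 in HBL2 and 0.089 in JEKO (adjusted p = 0.32 and 0.77 without _s_at probe sets), and the JEKO rise was lost without any 1 JEKO array (adjusted p = 0.074 to 0.16).

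Of 18 kinases and receptors reported at caveolae, 16 were tested. In HBL2 2 rose and 3 fell, where 4.91% of all genes tested rose and 6.86% fell. In JEKO 1 rose and 0 fell, where 2.56% of all genes rose and 1.72% fell. The medians of the list were 0.023 in HBL2 and 0.12 in JEKO. SRC, the kinase that phosphorylates caveolin, differed by 0.042 in HBL2 and -0.0048 in JEKO (adjusted p = 0.80 and 0.99). LYN, a SRC family kinase of B cells, fell by 0.28 ± 0.061 in HBL2 and SCARB1, the HDL receptor, by 0.32 ± 0.064. The scavenger receptor CD36 rose by 0.42 ± 0.089 in HBL2 and the growth factor receptor IGF1R by 0.26 ± 0.070. The IGF1R call (limma adjusted p = 0.021) was not followed over the alternatives. PDGFRB, a receptor of platelet-derived growth factor, fell by 0.39 ± 0.11. It reached the array median on 3 HBL2 PT arrays and 1 JEKO BR array. PDGFRB thus passed the filter only through HBL2 PT, where it was high, which leaves its call without weight. LYN was no longer called once probe sets ending in _x_at or _s_at were left out (adjusted p = 0.096). The call was lost for SCARB1 with the median over probe sets (adjusted p = 0.25) and for PDGFRB without HBL2 PT replicate 2, HBL2 PT replicate 3, HBL2 BR replicate 1 or HBL2 BR replicate 2 (0.051 to 0.11). The 1 gene called in JEKO was YES1, another SRC family kinase, with means of 0.54 in PT and 1.25 in BR. It reached the array median on the 2 JEKO BR arrays alone and so entered the test only through the group where it was high, which leaves its call without weight.

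**Figure D4:**
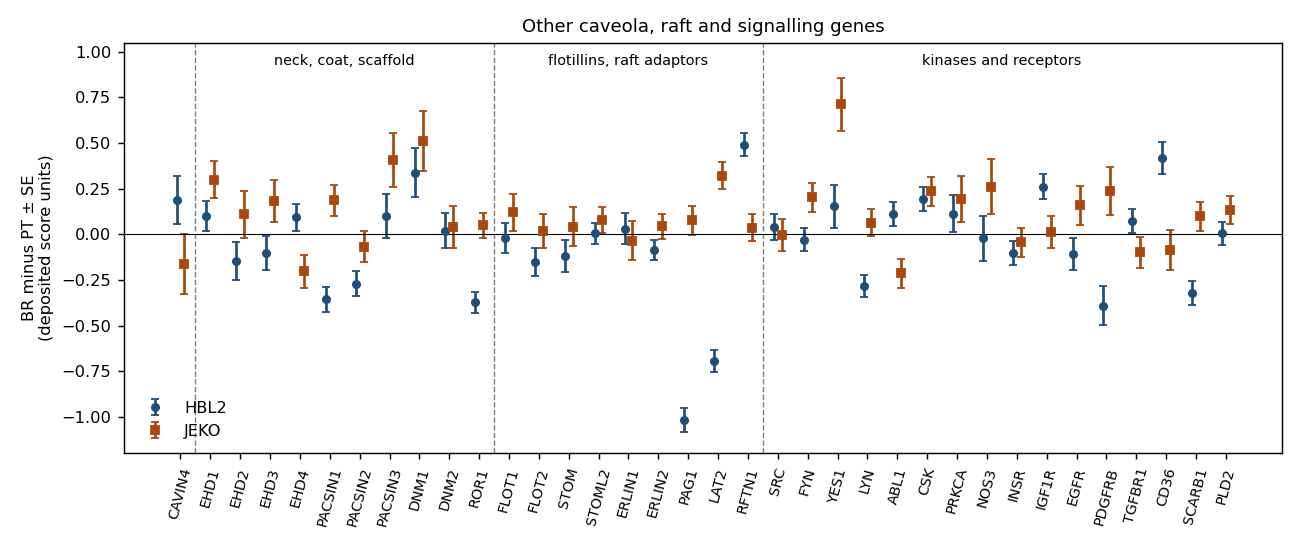
Difference between BR and PT cells in deposited score units (vertical axis), with the SE of the fit, in HBL2 (circles) and JEKO (squares), for CAVIN4 at the left and the tested genes of the 3 lists. PAG1 at -1.02 and LAT2 at -0.69 in HBL2 and YES1 at 0.71 in JEKO lie farthest from 0.

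Around CAV2 and CAV1 on chromosome 7, no tested neighbour passed the test as a rise in either line. Of the 5 protein-coding genes on each side in the RefSeq table, 6 were tested. In HBL2 0 rose and 2 fell (5 at an unadjusted p under 0.05), where 4.91% of all genes tested rose and 6.86% fell. In JEKO 0 rose and 1 fell (4 at an unadjusted p under 0.05), where 2.56% of all genes rose and 1.72% fell. At these shares, 0 rises among 6 genes says little about the neighbourhood. The shares are at adjusted p. None was taken over all genes at an unadjusted p under 0.05, so the counts at that threshold have no background. The median difference of the 6 neighbours was -0.21 in HBL2 and 0.15 in JEKO, against -0.00099 and 0.012 over all genes tested. In JEKO the differences of TES (0.25 ± 0.068, adjusted p = 0.051), MDFIC (0.26 ± 0.10, adjusted p = 0.20) and FOXP2 (0.28 ± 0.095, adjusted p = 0.11) were positive without passing. TES, next to CAV2 and encoding a focal adhesion protein, fell by 0.26 ± 0.055 in HBL2 (adjusted p = 0.005), and MDFIC, a regulator of transcription factors, fell by 0.41 ± 0.085 (adjusted p = 0.0037). Both calls were lost with the median over probe sets (adjusted p = 0.85 and 0.75), and that of MDFIC with percentile ranks (0.64). Without _x_at and _s_at probe sets the MDFIC difference turned to 0.091 (adjusted p = 0.65). MET, next to CAV1 and encoding the hepatocyte growth factor receptor, differed by -0.041 in HBL2 and 0.044 in JEKO (adjusted p = 0.85 and 0.89). TFEC, a MiT family transcription factor gene, fell by 0.52 ± 0.10 in JEKO (adjusted p = 0.0097), a call lost without JEKO PT replicate 1 (0.14) or JEKO BR replicate 2 (0.165).

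In PT cells, tested neighbours passed as higher in HBL2, as CAV1 did, with limits on some of these calls. Of the 6 tested neighbours 5 were higher in HBL2 PT than in JEKO PT and 0 were lower, against 13.9% and 9.25% of all genes. MDFIC was higher by 1.85 ± 0.095, TFEC by 0.87 ± 0.095, TES by 0.75 ± 0.062, FOXP2 by 0.54 ± 0.087 and CAPZA2, an actin capping subunit, by 0.50 ± 0.099 (adjusted p = 1.86e-09 to 0.0015). The FOXP2 call was lost when its 9 probe sets were reduced to their median (0.059, adjusted p = 0.72), and that of CAPZA2 was lost with the replicate block (0.37, adjusted p = 0.056). MDFIC reached the array median on the 6 HBL2 arrays alone and so entered the test only through the line where it was high. That leaves its call in PT cells without weight. The calls of TFEC and TES were kept in 22 of 22 alternatives each. MET differed by 0.092 (adjusted p = 0.58).

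**Figure D5:**
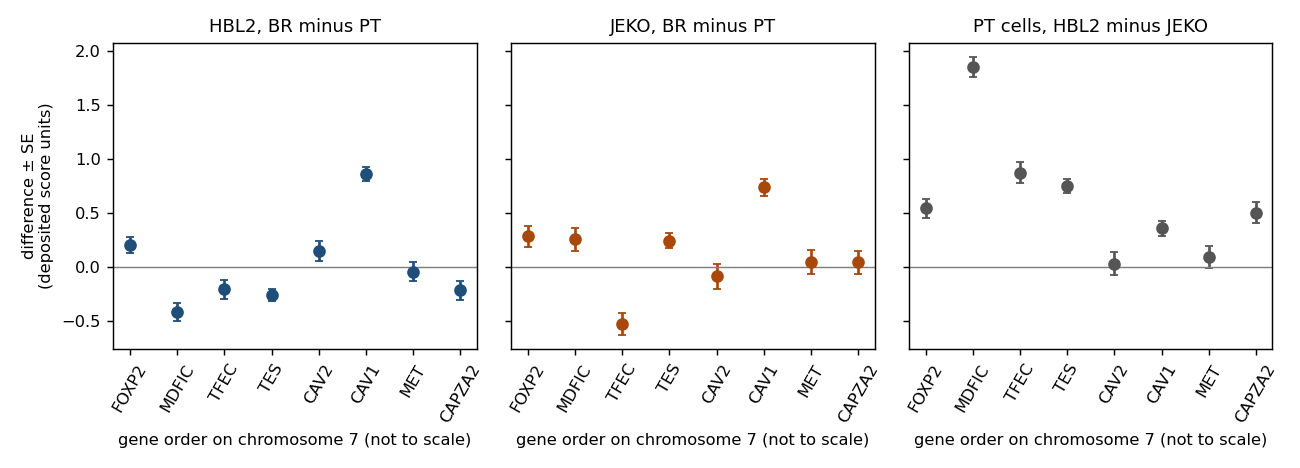
Difference in deposited score units (vertical axis), with the SE of the fit, for the tested genes around CAV2 and CAV1 in chromosome order; the panels show BR minus PT in HBL2, BR minus PT in JEKO, and HBL2 minus JEKO in PT cells. CAV1 alone is far above 0 in both BR panels, while in PT cells MDFIC (1.85), TFEC (0.87) and TES (0.75) exceed CAV1 (0.36). MDFIC entered the test only through the HBL2 arrays, where it was high.

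The genes whose scores over the 10 arrays were most like those of CAV1 were GNAZ, a G protein alpha subunit (Pearson r = 0.987), NBEA, a vesicle traffic scaffold (0.984), MKNK2, a kinase of the translation factor eIF4E (0.977), ADM, the gene of adrenomedullin (0.972), and ATF3, a stress-induced transcription factor (0.966). Their changes in HBL2 were 0.496, 0.37, 0.38, 1.15 and 0.28, and in JEKO 0.42, 0.25, 0.35, 0.80 and 0.33. In all, 53 of the genes tested had an r of at least 0.9 with CAV1, against 3 for CAV2, 0 for CAV3 and 2 for CAVIN1. The closest gene to CAV2 was GABRB2 (0.925), to CAV3 RHPN1-AS1 (0.866) and to CAVIN1 TMEM154 (0.942). CAV1 itself was not among the 5 closest genes of the other 3. These correlations run over arrays that share 4 groups and describe likeness of scores.

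The cells carried B cell markers throughout: the 6 measured B cell markers and the lymphoma genes CCND1 and SOX11 lay at or above the array median on every array. Beside the rise of CAV1, 5 of 5 plasma cell markers passed as higher in HBL2 BR, against 4.91% of all genes tested, and their summed score went from 6.70 to 7.16 in PT to 8.59 to 8.98 in BR. The HBL2 call of SDC1 was lost in 4 of 23 alternatives, among them leaving out BR replicate 3 (0.33, adjusted p = 0.069). It was lost for PRDM1 in 2 of 23, for IRF4 in 1 of 23 and for CD38 in 1 of 22. XBP1 passed in HBL2 at an adjusted p of 0.042 and was not followed over the alternatives. In JEKO 1 of the 5 plasma cell markers was called higher (SDC1, 0.498 ± 0.12) and 1 lower (CD38, -0.31 ± 0.085). Of all genes tested, 2.56% were higher there and 1.72% lower. The SDC1 call was lost in 9 of 23 alternatives, among them leaving out JEKO PT replicate 2 (0.29, adjusted p = 0.24) and either JEKO BR array (0.12 for replicate 1, 0.16 for replicate 2). The CD38 call was lost in 13 of 22, among them leaving out any 1 JEKO array (-0.42 to -0.20, adjusted p = 0.057 to 0.34), HBL2 PT replicate 2 or any 1 HBL2 BR array. The JEKO plasma cell markers had sums of 5.78 to 5.79 in PT and 6.41 to 6.80 in BR. The summed score of the B cell markers was 14.2 to 15.4 in HBL2 PT and 11.2 to 12.4 in HBL2 BR, and 14.9 to 15.1 and 14.8 to 15.0 in JEKO. In HBL2 3 of the 6 fell, against 6.86% of all genes tested. Most of the lower sum was TCL1A, an AKT coactivator of B cells, at -1.94, with CD79A at -0.35 and CD79B at -0.25. The CD79B call was lost in 4 of 22 alternatives, which gave differences as small as -0.014 and limma adjusted p up to 0.95. The part of these markers in the CAV1 values was not tested.

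Markers of cells rich in caveolae were also read. Of 5 endothelial markers, 4 were below the filter and PECAM1, which leukocytes also express, fell by 0.47 ± 0.084 in HBL2 and by 0.44 ± 0.10 in JEKO (adjusted p = 0.0013 and 0.024). Leaving out JEKO PT replicate 1 ended the JEKO call (adjusted p = 0.30), as did leaving out either JEKO BR array (0.12 for replicate 1 and 0.16 for replicate 2). Of 6 fibroblast markers, 5 were tested, 0 rose and PDGFRB fell in HBL2. PDGFRB passed the filter only through HBL2 PT, where it was high, so its call carries no weight. The summed score of the fibroblast markers was 3.6 to 4.41 in HBL2 PT and 4.01 to 4.18 in HBL2 BR. In JEKO it was 4.17 to 4.41 in PT and 4.04 to 4.39 in BR. Of 3 adipocyte markers 1 was tested by limma and 0 passed (0 at an unadjusted p under 0.05). Their summed score was 1.32 to 1.86 in HBL2 PT and 1.63 to 1.81 in HBL2 BR, and in JEKO it was 1.28 to 1.36 in PT and 1.58 to 1.75 in BR, without overlap. Of single genes tested, 28.3% had every JEKO BR array above every PT array, and no share was taken for sums. FABP4 and PLIN1, which enter the sum, were below the filter. FABP4 had means of 0.48 in JEKO PT and 0.73 in JEKO BR. Of 3 measured muscle markers MYH11 was called in HBL2, with means of 0.46 in PT and 1.01 in BR on 1 of 7 probe sets. It reached the array median on the 3 HBL2 BR arrays alone, so it entered the test only through the group where it was high, and the median over probe sets was not called (0.16, adjusted p = 0.25). The muscle markers' summed score went from 1.94 to 2.2 in HBL2 PT to 2.53 to 2.86 in HBL2 BR, and in JEKO from 1.87 to 2.48 to 1.76 to 1.93. Most of the higher sum in HBL2 BR was MYH11 at 0.56, with ACTA2 at 0.070 and DES at -0.031. The sum thus carries no weight beyond the MYH11 value. The part of other cells in the CAV1 rise was not tested beyond these levels. The same beta-actin difference ranged from -1.25 to -0.575 over the arrays, and without the 3 arrays of lowest value the rise of CAV1 was 0.83 in HBL2 and 0.71 in JEKO.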

How the data were processed

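The 10 arrays held 54675 probe sets, of which 41091 had 1 gene symbol in the platform annotation, 1801 several and 11721 none, and 62 were controls. The deposited score of each probe set was used as given. The submitters' processing notes name MAS5 without a version, and nothing more on the authors' steps is known here. Every array held the same set of values (largest difference between sorted arrays 0), so a score depends on rank alone, and its log base stays unknown.

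Genes were tested with limma 3.58.1 in R 4.3.3 (lmFit, eBayes with a trend) on 4 group means, with 6 residual degrees of freedom shared by all arrays. Probe sets were kept where they reached percentile 50 of the array on at least 2 arrays. A gene took the kept probe set of highest mean, which left 14529 genes. P-values are two-sided and Benjamini-Hochberg adjusted over these genes, with a threshold of 0.05. Other probe sets of the 4 genes were fitted the same way.

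The members, lists and tests were chosen with earlier results of these data known. Named genes are the members, up to 4 called genes of largest change per list and line, the called or directly adjacent neighbours, and up to 5 genes of highest correlation. EHD2, FLOT1, FLOT2 and SRC were named for their roles, and CAVIN4 and IGF1R to complete a count, after their values were seen. The code was tested on simulated data. Alternatives changed the filter, trend, weights, block, probe set rule, scale and each array in turn. Genes of the lists with no probe set of their own were not analysed here. The number of arrays limits the precision.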

Additional observations from a re-analysis of the deposited data

Results flagged for a closer look

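The change from PT to BR cells differed between the lines, by the limma interaction, for 15 genes of the lists and the neighbourhood; values are the HBL2 change minus the JEKO change. In the caveola list these were ROR1 (-0.42, adjusted p = 0.0080) and PACSIN1 (-0.54, adjusted p = 0.0053). Among raft genes they were PAG1 (-1.09, adjusted p = 7.94e-06), LAT2 (-1.02, adjusted p = 7.85e-06) and RFTN1 (0.45, adjusted p = 0.0072). Among kinases and receptors they were CD36 (0.51, adjusted p = 0.034), PDGFRB (-0.63, adjusted p = 0.028), SCARB1 (-0.42, adjusted p = 0.016) and LYN (-0.35, adjusted p = 0.034). PDGFRB passed the filter only through the HBL2 PT arrays, where it was high, and its call carries no weight. Among markers they were TCL1A (-1.56, adjusted p = 1.01e-05), CD22 (-0.51, adjusted p = 0.014), and CD38 (0.68, adjusted p = 0.0011). MYH11 (0.59) was tested only through the HBL2 BR arrays, where it was high, and its call carries no weight. Beside CAV2 and CAV1 they were MDFIC (-0.67, adjusted p = 0.0050, at or above the array median in HBL2 alone) and TES (-0.50, adjusted p = 0.0017).

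Among all genes tested 8.71% passed this test. Of CAV2, CAV3 and CAVIN1, 0 of 3 did in limma, and 0 of 3 had an unadjusted p under 0.05. With the median over probe sets the call was lost for PACSIN1 (adjusted p = 0.15), ROR1 (0.41), RFTN1 (0.44), CD36 (0.11), SCARB1 (0.17), LYN (0.12), MDFIC (0.61) and TES (0.69). Over all alternatives it was lost for CD36 in 11 of 21, LYN in 11 of 22, PDGFRB in 7 of 21, and CD22, ROR1, SCARB1 and MDFIC in 3 of 22 each. Leaving out 1 array took the adjusted p up to 0.18 for CD36, 0.14 for LYN, 0.12 for PDGFRB and 0.105 for CD22.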

How the results depend on the processing

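Of 360 values of the 4 genes under alternative settings, 325 kept their sign and 35 turned, 0 of these for the rise of CAV1 in either line or its PT difference; 2 passed the test under an alternative only and 0 lost a call. With the median over probe sets the rise of CAV1 was 0.67 in HBL2 and 0.65 in JEKO, and the difference between the lines was 0.016 (-0.092 on 203065_s_at, -12.7 as percentile points and -0.047 as normal scores). On probe set 203065_s_at the rises were 0.48 and 0.57, as percentile ranks 22.6 and 35.2 percentile points, and as normal scores 0.97 and 1.02. The PT difference of CAV2 passed with the median over probe sets (0.33, adjusted p = 0.011) and on probe set 203324_s_at (0.56, adjusted p = 0.0032), which brought the genes called in PT cells to 2. Leaving out 1 array gave 0.83 to 0.91 for CAV1 in HBL2 and 0.68 to 0.80 in JEKO. Without _x_at and _s_at probe sets the signs turned for LAT2 in HBL2 (0.17) and between the lines (0.081) and for MDFIC in HBL2 (0.091). With the replicate block CAV1 rose by 0.86 and 0.74, and its PT difference was 0.35 (adjusted p = 0.019). Deviations of same-numbered HBL2 arrays correlated at 0.0075 to 0.14, and of the JEKO arrays at 0.078, so the numbers were not taken as pairs.

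No value of CAV2, CAV3 or CAVIN1 that turned was called in either setting. For CAV2 in JEKO the value was 0.16 with the median over probe sets, 0.14 on 203324_s_at, 0.27 on 213426_s_at and 0.015 without the 3 arrays of lowest beta-actin difference. Its PT difference was -0.043 with the block, and its difference between the lines -0.032 with the median and -0.18 on 213426_s_at. For CAVIN1 the probe set 208790_s_at gave 0.094 in HBL2, -0.057 in JEKO, -0.27 in PT cells and 0.15 between the lines. On 208789_at it was -0.10 in JEKO, -0.049 in PT cells and 0.069 between the lines, and with the median -0.12, -0.13 and 0.092. For CAV3 the PT difference was 0.014 with array weights and 0.041 without the arrays of lowest beta-actin difference, where its difference between the lines was 0.088. Leaving out 1 array gave -0.18 to 0.015 for CAV2 in JEKO and -0.027 to 0.078 in PT cells, and for CAV3 -0.29 to 0.085 in JEKO, -0.17 to 0.072 in PT cells and -0.21 to 0.17 between the lines.

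The count of all genes called in JEKO (622) was 389 with no trend and with the median over probe sets, 1032 with array weights, 942 without HBL2 PT replicate 3, and 120 to 281 without 1 JEKO array. In HBL2 (1711) it was 2684 with array weights and 1118 without HBL2 BR replicate 2. In PT cells (3361) it was 2173 with the block, 2015 without JEKO PT replicate 1 and 1974 without JEKO PT replicate 2. When the 3 arrays with the lowest beta-actin difference were dropped, a setting chosen after seeing the data, 140 genes were called in JEKO. Under the filter at percentile 75 CAV2, CAV3 and CAVIN1 were not tested, and CAV3 has no value without _s_at probe sets.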
